A study of Homo sapiens with 18 samples.

Results

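The AP-1 family genes are the genes whose proteins make up the transcription factor AP-1, and 8 of them were followed here among the 28278 gene symbols of the count table: FOS, FOSB, FOSL1, FOSL2, JUN, JUNB, JUND and ATF3. They were taken by symbol, with earlier results of these data known. All 8 passed the filter on low counts that left 15353 genes for testing. The cells were LX-2, an established line of human hepatic stellate cells, the liver cells that lay down matrix in fibrosis. Thrombin is the protease that ends the clotting cascade and also cleaves receptors on cells. All cultures had 48 h of plating and 1 h without serum. They then received thrombin at 1 U/mL in the thrombin groups or serum-free medium alone in the control groups. The 6 groups were thrombin 4 h, control 4 h, thrombin 24 h, control 24 h, thrombin 48 h and control 48 h, with 3 libraries each, numbered 12, 13 and 14 in the labels. LX-2 is 1 cell line, and the labels do not say whether the libraries of a group came from separate cultures, so the p-values speak only of the scatter among these libraries, and that scatter may be technical.

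AP-1 is a dimer of basic leucine zipper proteins. A Jun protein (JUN, JUNB or JUND) pairs with another Jun protein, with a Fos protein (FOS, FOSB, FOSL1 or FOSL2) or with a related factor such as ATF3, and the dimer binds the DNA element TGACTCA or the longer, cyclic AMP-type element TGACGTCA. FOS, FOSB, JUN, JUNB and ATF3 are classic immediate early genes, switched on within minutes of a growth factor, stress or protease signal through MAP kinases, while FOSL1 and FOSL2 (Fra-1 and Fra-2) are usually induced later and lack the strong activation domain of FOS and FOSB. In rat stellate cells in culture, JunD is known to drive the promoter of the metalloproteinase inhibitor gene Timp1.

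Library totals ran between 14431044 and 23270601 counts, and the 10 most abundant genes took 4.00% to 5.51% of a library. Among 11 stellate cell markers VIM averaged 3593 CPM and COL1A1 2274 CPM, while COL1A2 averaged 18.0, ACTA2 11.4 and DES 2.97 CPM. LRAT, which esterifies vitamin A in quiescent stellate cells, had at most 6 counts in a library and DCN at most 5. Of the markers of other liver cells, ALB had at most 2 counts, LYVE1 and TTR 0, CD163 at most 1 and EPCAM at most 3. Other genes of those lists were expressed, with averages of 169.8 CPM for SOX9, 75.0 CPM for CD68, 14.5 CPM for VWF, 6.55 CPM for KRT7 and 5.92 CPM for CD14. Some libraries stood apart within their group by chi-square per degree of freedom of their counts. Number 12 differed from 13 and 14 by 14.0 and 16.6 in thrombin 4 h and by 16.0 and 15.4 in control 4 h, where 13 and 14 differed by 5.67 and 4.31. In control 48 h number 14 differed from 12 and 13 by 17.0 and 12.4, against 3.77 between those. The labels carried a doubt that touches every result. Of 961 genes called at both 4 h and 24 h, 948 had effects of opposite sign, and the libraries labelled thrombin 4 h differed from those labelled control 24 h in 11 of 15353. The group names below are the labels' own, and every direction depends on them. A gene was called, and is said to have risen or fallen, where edgeR's quasi-likelihood test gave a Benjamini-Hochberg adjusted p under 0.05 over all 15353 genes. Levels are TMM-scaled CPM, the usual count of a gene relative to the scaled library total, and in bulk RNA fewer cells expressing a gene and less RNA per cell cannot be told apart.

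FOSB, JUNB and JUND share chromosome 19, JUN and ATF3 share chromosome 1, and the other members each lie on a different chromosome. In GRCh38.p14, FOSL1 spans chr11:65892049-65900545 on the minus strand, FOSL2 chr2:28392858-28417317 on the plus strand, FOSB chr19:45467996-45475179 on the plus strand and FOS chr14:75278828-75282230 on the plus strand. JUN spans chr1:58780791-58784047 on the minus strand, JUNB chr19:12791486-12793315 on the plus strand, JUND chr19:18279694-18281622 on the minus strand and ATF3 chr1:212565407-212620777 on the plus strand. All 8 are protein-coding. JUNB overlaps HOOK2, another gene of the table, and no source used here gives the strand setting of the counting, so the JUNB level is uncertain. FOSL2 overlaps the antisense gene FOSL2-AS1, which was not analysed here.

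Promoter windows from RefSeq (GRCh38.p14) were found for 7 of the 8 genes, all except FOSL1. The windows below, from 250 bases before to 15 bases after the start of transcription, belong to 4 of the members on which the results turn: FOSB, FOSL2 and JUN, which were called at 24 h, and JUND, whose effect moved the other way between 24 h and 48 h. Each is written 5′ to 3′ on the strand of its gene, and capitals mark a match to a searched motif: the TATA element TATAAA in FOSB, the AP-1 element TGACTCA in FOSL2, the variant element TGACATCA in JUN and the cyclic AMP-type element TGACGTCA in JUND.
FOSB chr19:45467746-45468010 plus strand: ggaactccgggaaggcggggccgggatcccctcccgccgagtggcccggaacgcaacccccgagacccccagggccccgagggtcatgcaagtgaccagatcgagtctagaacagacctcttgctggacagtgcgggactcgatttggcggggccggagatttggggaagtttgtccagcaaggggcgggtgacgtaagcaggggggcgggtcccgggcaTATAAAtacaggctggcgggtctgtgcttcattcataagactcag
FOSL2 chr2:28392608-28392872 plus strand: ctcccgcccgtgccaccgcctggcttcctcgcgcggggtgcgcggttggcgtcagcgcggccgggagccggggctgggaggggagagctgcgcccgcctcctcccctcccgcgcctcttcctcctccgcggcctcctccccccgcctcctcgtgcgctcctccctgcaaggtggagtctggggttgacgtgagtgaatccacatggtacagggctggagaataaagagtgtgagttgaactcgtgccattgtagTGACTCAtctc
JUN chr1:58784033-58784297 minus strand: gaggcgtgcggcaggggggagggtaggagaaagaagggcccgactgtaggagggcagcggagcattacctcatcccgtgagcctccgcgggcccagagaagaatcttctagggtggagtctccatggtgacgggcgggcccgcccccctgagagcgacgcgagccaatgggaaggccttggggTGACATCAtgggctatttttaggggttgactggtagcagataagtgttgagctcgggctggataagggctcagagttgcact
JUND chr19:18281608-18281872 minus strand: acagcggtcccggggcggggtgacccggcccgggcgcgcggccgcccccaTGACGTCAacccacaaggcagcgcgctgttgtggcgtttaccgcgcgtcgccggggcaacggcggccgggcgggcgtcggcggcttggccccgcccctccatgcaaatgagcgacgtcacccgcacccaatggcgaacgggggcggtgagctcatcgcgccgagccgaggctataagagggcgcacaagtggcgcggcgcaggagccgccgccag
The 5 motifs searched on both strands of 300 bases (250 before and 50 after the start) were the AP-1 element TGACTCA, the longer elements TGACGTCA and TGACATCA, the TATA element TATAAA and the CArG box. Each of the 7 windows held 1 match and no matches overlapped. TGACTCA stood at bases 5 to 11 after the FOSL2 start, TGACATCA at bases -67 to -60 of JUN and TGACGTCA at bases -200 to -193 of JUND. TATAAA stood at bases -33 to -28 of FOS, -30 to -25 of FOSB and -31 to -26 of JUNB, and at -230 to -225 of an ATF3 window that starts inside that gene. Of 35116 human promoters of this length, TGACTCA was in 4.949%, TGACGTCA in 1.848%, TGACATCA in 2.614%, TATAAA in 11.53% and the CArG box, in 0 of the 7 windows here, in 1.293%. A match is a string of letters and was not shown to be bound, and sequence outside these 300 bases was not searched.

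FOSL1 was the only one of the 8 genes called in opposite directions at 4 h and 24 h. At 4 h it measured 234, 234 and 305 CPM in the libraries labelled thrombin 12, 13 and 14, against 349.5, 526 and 530.3 CPM in those labelled control. All 3 thrombin libraries were below all 3 control libraries. FOSL1 fell by 0.86 on the log2 scale at 4 h (SE 0.16, edgeR adjusted p = 0.00175). At 24 h the order was turned round, with 333, 464 and 479 CPM in thrombin libraries against 203, 226 and 254 CPM in control libraries, again without overlap. FOSL1 rose by 0.90 ± 0.16 at 24 h (log2, SE, edgeR adjusted p = 0.000564). At 48 h it measured 214, 226 and 270.3 CPM in thrombin and 223, 248 and 267 CPM in control, overlapping ranges (log2 fold change -0.05 ± 0.16, edgeR adjusted p = 0.961). Without all libraries numbered 13 the decrease at 4 h was -0.70 and no longer called (edgeR adjusted p = 0.149). The increase at 24 h was called in all 15 alternatives tried.

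FOSL2, the other late Fos gene, was called only at 24 h among the 3 times, with the difference between times tested further on. Its 24 h levels were 302, 292 and 249 CPM in thrombin libraries 12, 13 and 14, against 195, 179 and 189 CPM in control libraries. Every thrombin library stood above every control library, and FOSL2 rose by 0.58 ± 0.10 (log2, SE, edgeR adjusted p = 0.000237). At 4 h it averaged 176 ± 19.3 CPM in thrombin and 193 ± 22.4 CPM in control (SD, n = 3 each), which gave -0.13 ± 0.10 on the log2 scale (edgeR adjusted p = 0.448). At 48 h it averaged 251 ± 10.5 CPM in thrombin and 222 ± 31.5 CPM in control (SD, n = 3 each), with 0.18 ± 0.10 (edgeR adjusted p = 0.735). FOSL2 at 24 h was called in all 15 alternatives.

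FOSB had the largest fold of the 8 genes at 24 h on a low level. It measured 4.98, 6.05 and 5.13 CPM in thrombin libraries 12, 13 and 14 at 24 h, against 1.47, 1.65 and 2.82 CPM in control libraries. These values rest on 74, 89 and 91 raw counts in thrombin and 22, 25 and 47 in control, and the groups did not overlap. FOSB rose by 1.43 ± 0.24 (log2, SE, edgeR adjusted p = 0.000151), and was called in all 15 alternatives. At 4 h it measured 2.75, 1.67 and 3.61 CPM in thrombin and 1.95, 1.99 and 2.50 CPM in control, with thrombin library 13 below all control libraries and the other two above them. The 4 h fold was 0.33 ± 0.25 (log2, SE, edgeR adjusted p = 0.434). At 48 h it measured 2.47, 2.92 and 2.67 CPM in thrombin and 2.10, 2.14 and 2.24 CPM in control, a small separation (log2 fold change 0.32 ± 0.25, edgeR adjusted p = 0.805).

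FOS, the founding member of the family, was as low as FOSB and was called at none of the 3 times. The earliest libraries were those of 4 h, so an earlier change in FOS or any other member could not be seen. At 4 h it measured 4.89, 4.74 and 3.61 CPM in thrombin libraries, against 3.85, 4.37 and 2.71 CPM in control libraries (log2 fold change 0.26 ± 0.19, edgeR adjusted p = 0.427). At 24 h it measured 2.22, 2.58 and 3.16 CPM in thrombin, against 4.34, 3.43 and 3.30 CPM in control. The 24 h groups did not overlap and lay in the direction opposite to FOSB, but the log2 fold change of -0.46 ± 0.22 was not called (SE, edgeR adjusted p = 0.148). Over the 18 libraries FOS had between 33 and 105 raw counts. At 48 h the means were 3.00 ± 0.305 CPM in thrombin and 3.08 ± 0.522 CPM in control (SD, n = 3 each).

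JUN, generally the strongest activator among the Jun proteins, was the most abundant of the 8 genes in CPM. At 4 h it measured 449, 513 and 548 CPM in thrombin libraries 12, 13 and 14, against 550.2, 745 and 662 CPM in control libraries. The groups touched but did not overlap, and the log2 fold change of -0.37 ± 0.13 was just short of the threshold (SE, edgeR adjusted p = 0.0547). It was past the threshold in 7 of 15 alternatives, with an adjusted p of 0.0364 by DESeq2, 0.0145 with a replicate block and 0.0123 by edgeR without control 4 h library 12. At 24 h JUN measured 445, 652 and 722 CPM in thrombin against 454, 482 and 479 CPM in control. Thrombin library 12 was below all 3 control libraries and the other two were above them. JUN rose by 0.36 ± 0.13 at 24 h (log2, SE, edgeR adjusted p = 0.0485), and the call was lost in 8 of 15 alternatives. Without any of 5 single libraries (control 12, 13 or 14, thrombin 13 or 14) or without all libraries numbered 13 or 14, the edgeR adjusted p was between 0.0890 and 0.354, with log2 fold changes from 0.22 to 0.38. Fitted to the 24 h libraries alone, it was 0.0995 by edgeR. At 48 h JUN averaged 507 ± 27.9 CPM in thrombin and 479 ± 20.0 CPM in control (SD, n = 3 each; log2 fold change 0.08 ± 0.13).

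JUND, the Jun gene that is least dependent on stimulation in most cells, was called at none of the 3 times. At 24 h it measured 154, 216 and 157 CPM in thrombin libraries 12, 13 and 14, against 243, 267 and 213 CPM in control libraries. The groups overlapped in 1 pair of libraries, thrombin 13 and control 14, and the log2 fold change was -0.46 ± 0.17 (SE, edgeR adjusted p = 0.0767). Without thrombin 24 h library 13 it was -0.63 and called (edgeR adjusted p = 0.0189). At 48 h JUND measured 305, 282 and 208 CPM in thrombin against 161, 170.2 and 239 CPM in control, with numbers 12 and 13 higher in thrombin and number 14 lower. The log2 fold change at 48 h was 0.48 ± 0.17 (edgeR adjusted p = 0.57). At 4 h it measured 212, 269.8 and 249 CPM in thrombin and 272, 213 and 227 CPM in control, with overlapping ranges (log2 fold change 0.04 ± 0.17). JUND is GC-rich, with 69.7% GC in its transcript. The 138 tested genes within 2 percentage points of that had median log2 fold changes of -0.22 at 24 h and 0.19 at 48 h. The trend of level with GC content also differed between libraries of a group. In log2 per 10 percentage points it was -0.10, 0.07 and -0.01 in thrombin 24 h libraries 12, 13 and 14. In control 24 h libraries it was 0.11, 0.06 and -0.02 in the same order. With each gene's GC content corrected for, JUND changed by -0.31 at 24 h (edgeR adjusted p = 0.0125) and 0.32 at 48 h (edgeR adjusted p = 0.261).

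JUNB, a Jun protein that often restrains JUN, was called at none of the times. Its means were 64.4 ± 10.4 CPM in thrombin and 54.9 ± 15.4 CPM in control at 4 h, 81.1 ± 20.2 and 69.6 ± 7.93 CPM in thrombin and control at 24 h, and 79.4 ± 17.1 and 62.0 ± 4.10 CPM in thrombin and control at 48 h (SD, n = 3 each). The log2 fold changes were 0.23 ± 0.21, 0.22 ± 0.21 and 0.36 ± 0.21 (SE). ATF3, a stress-induced partner of Jun proteins that acts mainly as a repressor, was also called at none. It averaged 4.78 ± 0.907 CPM in thrombin and 4.27 ± 1.23 CPM in control at 4 h, 5.32 ± 0.619 and 5.81 ± 0.515 CPM in thrombin and control at 24 h, and 6.37 ± 0.948 and 5.21 ± 0.770 CPM in thrombin and control at 48 h (SD, n = 3 each). In all 18 libraries ATF3 lay between 2.92 and 7.46 CPM.

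**Figure D1:**
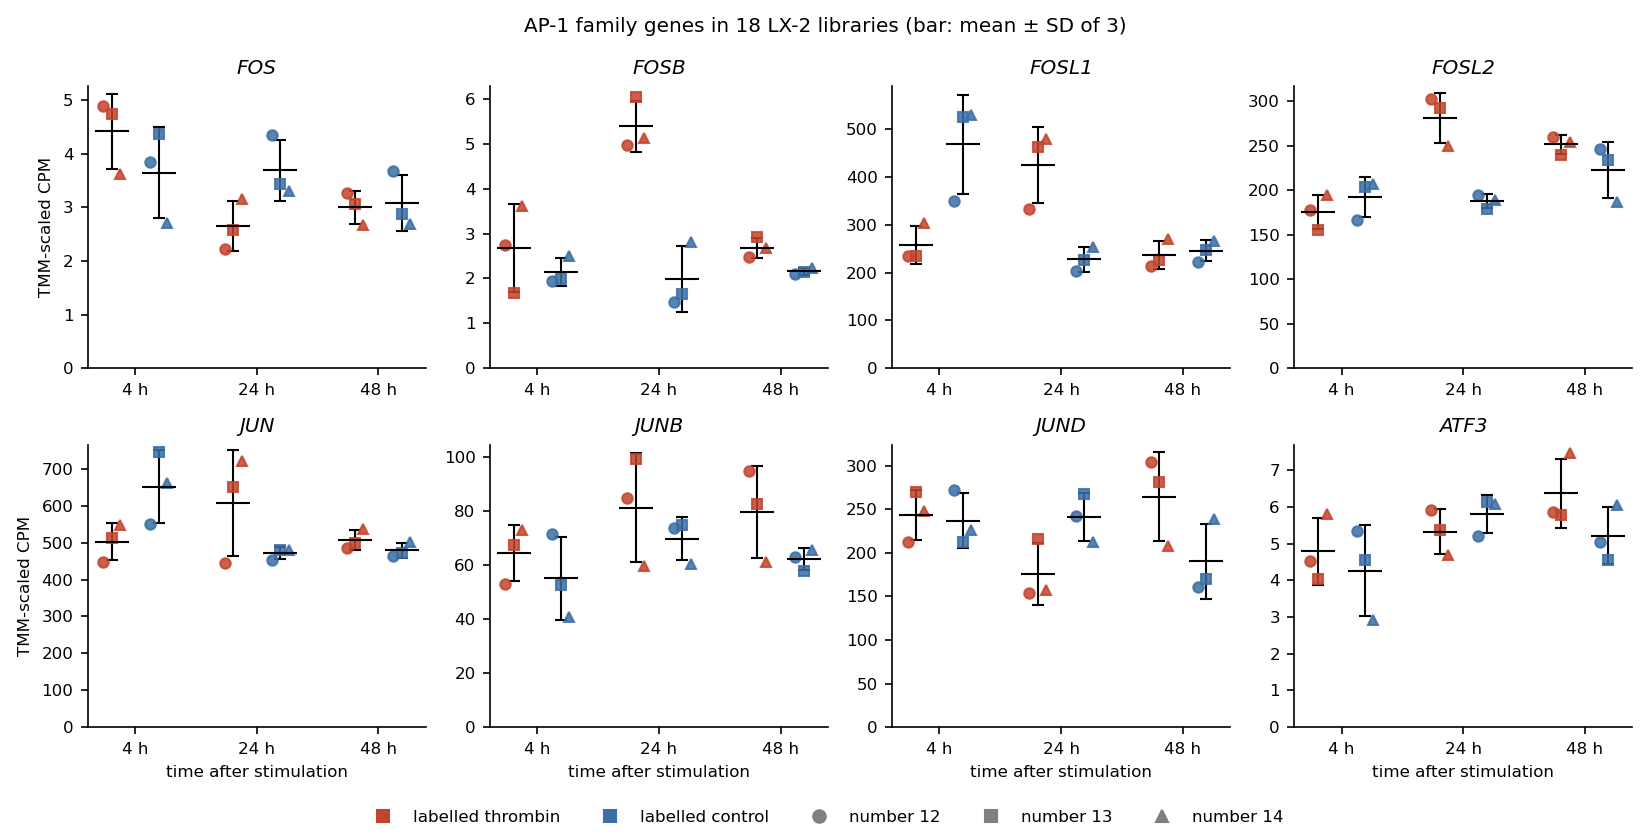
Level of each of the 8 genes in every library, in TMM-scaled CPM on a linear axis from 0, with the thrombin group left of its control group at 4, 24 and 48 h; point shapes give the library number and black bars the mean ± SD of 3 libraries. FOSL1 lay at 234 to 305 CPM in thrombin libraries and 349.5 to 530.3 CPM in control libraries at 4 h, and at 333 to 479 CPM in thrombin and 203 to 254 CPM in control at 24 h.

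Counted over the family, 0 of the 8 members rose and 1 (FOSL1) fell at 4 h, when 11.8% of all tested genes were called, 6.29% higher and 5.52% lower. At 24 h 4 rose (FOSL1, FOSL2, FOSB and JUN) and 0 fell, against 17.6% of all genes called, 9.05% higher and 8.54% lower. At 48 h 0 members were called by edgeR, as were 0% of all genes; 1 member, JUND, and 7.23% of all genes had an unadjusted p under 0.05, and DESeq2 called 0 members. The median log2 fold change of the 8 members was 0.09 at 4 h, 0.29 at 24 h and 0.23 at 48 h, where the median of all tested genes was 0.00 at 4 h and 24 h and 0.01 at 48 h. The members' ranges did not overlap between thrombin and control for 2 members at 4 h (FOSL1 and JUN, 25.8% of all genes), 4 at 24 h (FOSL1, FOSL2, FOSB and FOS, 34.1% of all genes) and 1 at 48 h (FOSB, 14.2% of all genes).

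**Figure D2:**
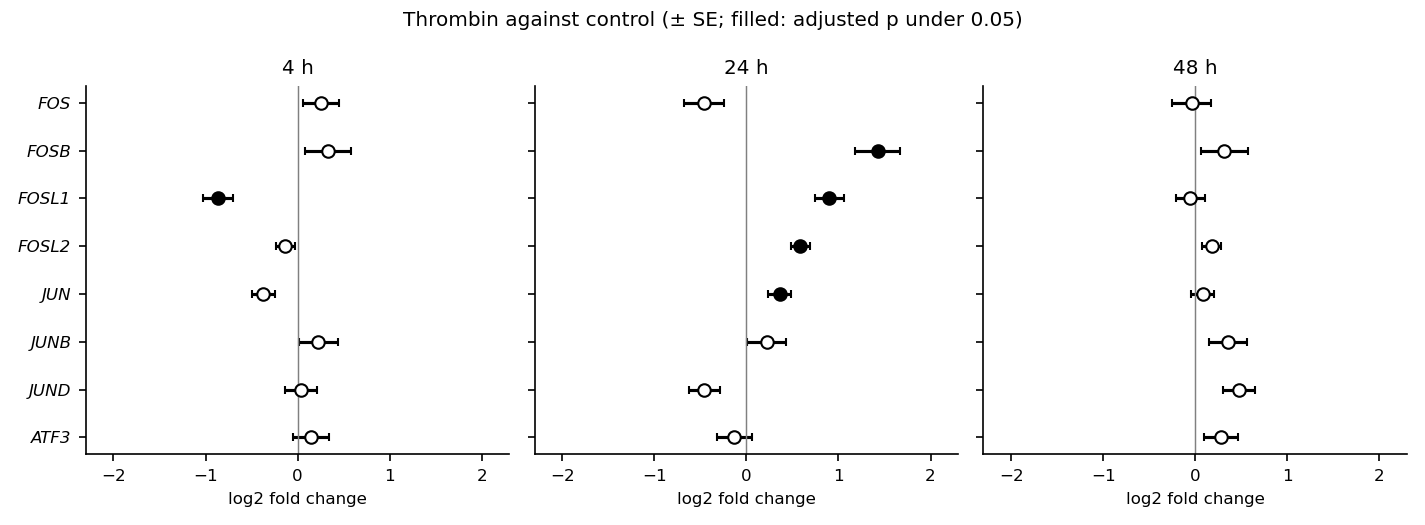
Log2 fold change of thrombin against control for each gene at 4, 24 and 48 h, with bars of 1 SE and filled points where the edgeR adjusted p was under 0.05. FOSL1 was filled at 4 h (-0.86) and, with FOSB (1.43), FOSL2 (0.58) and JUN (0.36), at 24 h (FOSL1 0.90), and no point was filled at 48 h.

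The difference of the thrombin effect between times was tested directly. These differences share libraries with the effects above and are not independent of them. The effect at 24 h minus that at 4 h was called for 4 of the 8 members, all positive, against 28% of all genes called, 13.6% positive and 14.3% negative. It was 1.76 ± 0.23 for FOSL1 (log2, SE, edgeR adjusted p = 1.08e-05), the effect being 0.90 at 24 h and -0.86 at 4 h. FOSB had a difference of 1.10 ± 0.35 (edgeR adjusted p = 0.0211), JUN 0.74 ± 0.18 (edgeR adjusted p = 0.00336) and FOSL2 0.72 ± 0.15 (edgeR adjusted p = 0.000672). FOS moved the other way without being called (-0.72 ± 0.29, edgeR adjusted p = 0.0662), and was called without control 4 h library 13, thrombin 4 h library 14 or thrombin 24 h library 14 (edgeR adjusted p from 0.0402 to 0.0466). JUND (-0.49 ± 0.24) was called without thrombin 24 h library 13 (-0.67, edgeR adjusted p = 0.0374). Without all libraries numbered 13, FOSL2 had 0.52 (edgeR adjusted p = 0.111), JUN 0.60 (edgeR adjusted p = 0.127) and FOSB 0.70 (edgeR adjusted p = 0.316), and none of the 3 was called. FOSB was not called either without control 4 h library 14, thrombin 4 h library 13, control 24 h library 12 or control 24 h library 13, with edgeR adjusted p from 0.0594 to 0.0685.

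Between 48 h and 24 h the effect dropped for FOSB and FOSL1 and moved upward for JUND, with -0.46 at 24 h and 0.48 at 48 h, neither called, against 13.8% of all genes called, 7.16% positive and 6.68% negative. FOSB had a difference of -1.11 ± 0.35 (edgeR adjusted p = 0.037) and FOSL1 -0.95 ± 0.23 (edgeR adjusted p = 0.00787). JUND had 0.93 ± 0.24 (edgeR adjusted p = 0.0149), the only positive call among the members. FOSL2 had -0.41 ± 0.15 and was not called (edgeR adjusted p = 0.0647), except without thrombin 24 h library 14 (edgeR adjusted p = 0.0391), without control 48 h library 14 (edgeR adjusted p = 0.0121) and in some other alternatives. JUN was called without thrombin 24 h library 12 (-0.46, edgeR adjusted p = 0.0295). The FOSB call was lost in 12 of 21 alternatives, among them the removal of any 1 of control 24 h libraries 12 and 13, thrombin 24 h libraries 13 and 14 and all 6 libraries of 48 h, with edgeR adjusted p from 0.0523 to 0.111. The JUND call was lost without all libraries numbered 12 (0.62, edgeR adjusted p = 0.312) or numbered 13 (0.90, edgeR adjusted p = 0.0684), and the FOSL1 call without those numbered 13 (-0.85, edgeR adjusted p = 0.15). Genes of GC content like that of JUND had a median difference of 0.39, and with GC content corrected for JUND had 0.63 (edgeR adjusted p = 0.00104). Between 48 h and 4 h 0 members were called by edgeR, against 0.632% of all genes, and 3 (FOSL1, FOSL2 and JUN) had an unadjusted p under 0.05. FOSL1 had 0.81 ± 0.23 (edgeR adjusted p = 0.123) and was called by DESeq2 (adjusted p = 0.019), with a replicate block (edgeR adjusted p = 0.00223) and without control 4 h library 12 (0.98, edgeR adjusted p = 0.00541).

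**Figure D3:**
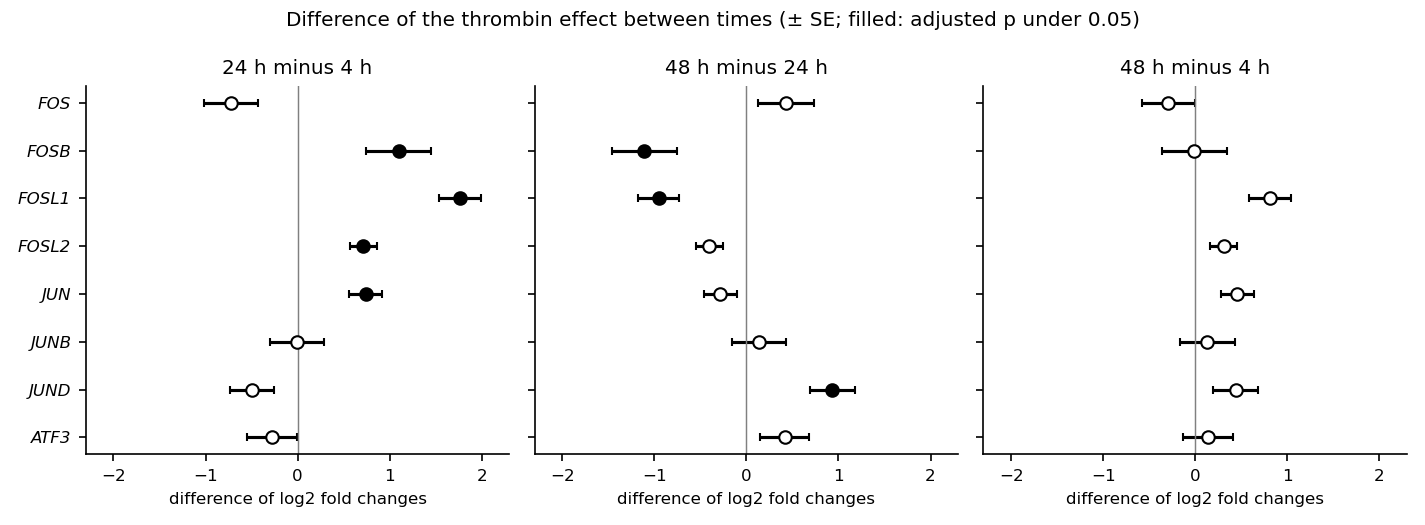
Difference of the thrombin effect between times for each gene, in log2 units with bars of 1 SE, filled where the edgeR adjusted p was under 0.05. For 24 h minus 4 h the filled points were FOSL1 (1.76), FOSB (1.10), JUN (0.74) and FOSL2 (0.72), and for 48 h minus 24 h they were JUND (0.93), FOSL1 (-0.95) and FOSB (-1.11).

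Changes over time were also compared within each treatment. Among thrombin libraries, 24 h against 4 h gave 3 members higher and 1 lower, with 15.1% of all genes called, 7.85% higher and 7.28% lower. FOSL2 rose by 0.68 ± 0.10 (edgeR adjusted p = 4.77e-05), FOSB by 1.01 ± 0.23 (edgeR adjusted p = 0.00302) and FOSL1 by 0.72 ± 0.16 (edgeR adjusted p = 0.00427), while FOS fell by 0.73 on the log2 scale (SE 0.21, edgeR adjusted p = 0.0174). The FOS call was lost without thrombin 4 h library 12 or 13 or thrombin 24 h library 12 (edgeR adjusted p from 0.0516 to 0.0883), and those of FOSB and FOSL1 without all libraries numbered 13 (edgeR adjusted p = 0.2 and 0.157). Removal of all libraries numbered 12 or 13 also lost the FOS call (edgeR adjusted p = 0.151 and 0.223). JUN was called without thrombin 24 h library 12 (0.45, edgeR adjusted p = 0.00452) and JUND without thrombin 24 h library 13 (-0.65, edgeR adjusted p = 0.0182). Among control libraries, 24 h against 4 h gave 0 members higher and 2 lower, with 15.2% of all genes called, 8.1% higher and 7.15% lower. FOSL1 fell by 1.04 on the log2 scale (SE 0.16, edgeR adjusted p = 0.000234), with means of 228 ± 25.6 CPM in control 24 h and 469 ± 103 CPM in control 4 h (SD, n = 3 each). JUN fell by 0.47 (SE 0.13, edgeR adjusted p = 0.0138), with 472 ± 15.6 CPM in control 24 h and 652 ± 97.8 CPM in control 4 h. The JUN decrease was not called without control 4 h library 13 (-0.36, edgeR adjusted p = 0.084) or control 24 h library 12 (-0.44, edgeR adjusted p = 0.0645). Nor was it called without all libraries numbered 13 or 14 (edgeR adjusted p = 0.279 and 0.0518). FOSL2 (-0.04 ± 0.10) and FOSB (-0.09 ± 0.27) were not called in that control comparison.

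From 24 h to 48 h, thrombin libraries had 1 member higher and 2 lower, with 9.72% of all genes called, 4.31% higher and 5.41% lower. On the log2 scale FOSL1 had -0.84 ± 0.16 (edgeR adjusted p = 0.0017) and FOSB -1.0 ± 0.23 (edgeR adjusted p = 0.00555), neither called without all libraries numbered 13 (edgeR adjusted p = 0.1 and 0.0938). JUND had 0.59 ± 0.17 (edgeR adjusted p = 0.0358), a call lost without thrombin 24 h library 12 or 14 or thrombin 48 h library 12 or 13 (edgeR adjusted p from 0.123 to 0.144). The JUND call was also lost without all libraries numbered 12 or 13 (edgeR adjusted p = 0.338 and 0.0503). Fitted to these groups alone, JUND had an edgeR adjusted p of 0.0519. JUN was called without thrombin 24 h library 12 (-0.44, edgeR adjusted p = 0.00679). Control libraries had 0 members called between 48 h and 24 h, with 6.12% of all genes called; 1 member, FOSL2 (0.24 ± 0.10), had an unadjusted p under 0.05, and DESeq2 called 0. Without control 48 h library 14, FOSL2 (0.36, edgeR adjusted p = 0.0383) and JUND (-0.54, edgeR adjusted p = 0.0493) were called.

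Because the libraries labelled thrombin 4 h resembled those labelled control 24 h, these 2 groups were also set against each other, and likewise thrombin 24 h against control 4 h. Between thrombin 4 h and control 24 h, 0 members were called by edgeR, 0 had an unadjusted p under 0.05 and DESeq2 called 0, with 0.0716% of all genes called. FOSL1 averaged 258 ± 40.7 CPM in thrombin 4 h and 228 ± 25.6 CPM in control 24 h (SD, n = 3 each), and JUN 503 ± 50.3 CPM in thrombin 4 h and 472 ± 15.6 CPM in control 24 h. Between thrombin 24 h and control 4 h, 2 members were higher, with 3.34% of all genes called, 2.37% higher and 0.97% lower. FOSB rose by 1.34 ± 0.24 (edgeR adjusted p = 0.000925) and FOSL2 by 0.55 ± 0.10 (edgeR adjusted p = 0.00188), both called without any 1 library but not without all libraries numbered 13 (edgeR adjusted p = 0.0709 and 0.0939). FOSL1 averaged 425 ± 80.1 CPM in thrombin 24 h and 469 ± 103 CPM in control 4 h (-0.14 ± 0.16, edgeR adjusted p = 0.733). JUNB was called without thrombin 24 h library 14 (0.74, edgeR adjusted p = 0.0407). FOSB and FOSL2 were thus higher in thrombin 24 h than in either control group at 4 h or 24 h, while FOSL1 was higher than in control 24 h and not called against control 4 h.

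Levels between genes were compared per kilobase of GENCODE v29 exon, since longer transcripts give more counts. The length was the union of a gene's exons over all its transcripts, which for FOS was 3238 bases in a gene of 3403. Genes with many transcripts, such as FOS (10) and FOSB (13) against FOSL1 (5), may thus be set too low on this scale. On that scale 3 genes led in every group, JUN, FOSL1 and JUND, and FOSB, FOS and ATF3 had group means between 0.357 and 1.58 CPM per kb. In thrombin 4 h libraries JUN had 142 ± 14.2, FOSL1 137 ± 21.6 and JUND 131 ± 15.6 CPM per kb, with overlapping ranges between neighbours. In control 4 h libraries FOSL1 led with 248 ± 54.7, ahead of JUN with 184 ± 27.6 CPM per kb, also overlapping. In thrombin 24 h libraries FOSL1 had 225 ± 42.5 and JUN 171 ± 40.6 CPM per kb, overlapping, and JUND with 94.3 ± 19.0 lay below both. In control 24 h libraries JUN had 133 ± 4.40, JUND 129 ± 14.6 and FOSL1 121 ± 13.6 CPM per kb, and in control 48 h libraries JUN had 135 ± 5.65, FOSL1 130.2 ± 11.7 and JUND 102 ± 23.0, with overlap between neighbours in both. In thrombin 48 h libraries JUN had 143 ± 7.87, JUND 142 ± 27.2 and FOSL1 126 ± 15.6 CPM per kb, overlapping. JUNB and then FOSL2 came next in all 6 groups, at 30.2 to 44.6 CPM per kb for JUNB and 24.6 to 39.3 for FOSL2, with overlapping ranges in 4 of the 6 groups (control 4 h, thrombin 24 h, thrombin 48 h and control 48 h). JUNB did not overlap any of the leading 3 genes in any group.

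Within the Fos genes, FOSL1 made up 77.3% to 89.6% of the summed level per kilobase as a group mean, FOSL2 9.87% to 21.8%, FOS at most 0.860% and FOSB at most 0.368%. The limit of the exon lengths given above holds for these shares too. At 4 h the FOSL1 share was 83.7% ± 1.32 in thrombin and 89.6% ± 1.20 in control (SD, n = 3 each; exact permutation p = 0.1, two-sided). At 24 h the FOSB share was 0.368% ± 0.0451 in thrombin and 0.237% ± 0.0658 in control (exact permutation p = 0.1), and the FOS share 0.308% ± 0.0299 in thrombin and 0.779% ± 0.184 in control (exact permutation p = 0.1). FOSB thus exceeded FOS per kilobase as a group mean in thrombin 24 h libraries, although the ranges of their levels overlapped. Within the Jun genes at 24 h, JUN held 54.9% ± 7.55 in thrombin and 44.4% ± 3.01 in control, and JUND 30.5% ± 3.61 in thrombin and 42.9% ± 2.26 in control (exact permutation p = 0.1 for both). With 3 libraries against 3, 0.1 is the smallest two-sided p, and over the 21 shares tested its adjusted value was 0.233, so no share could pass a threshold of 0.05.

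**Figure D4:**
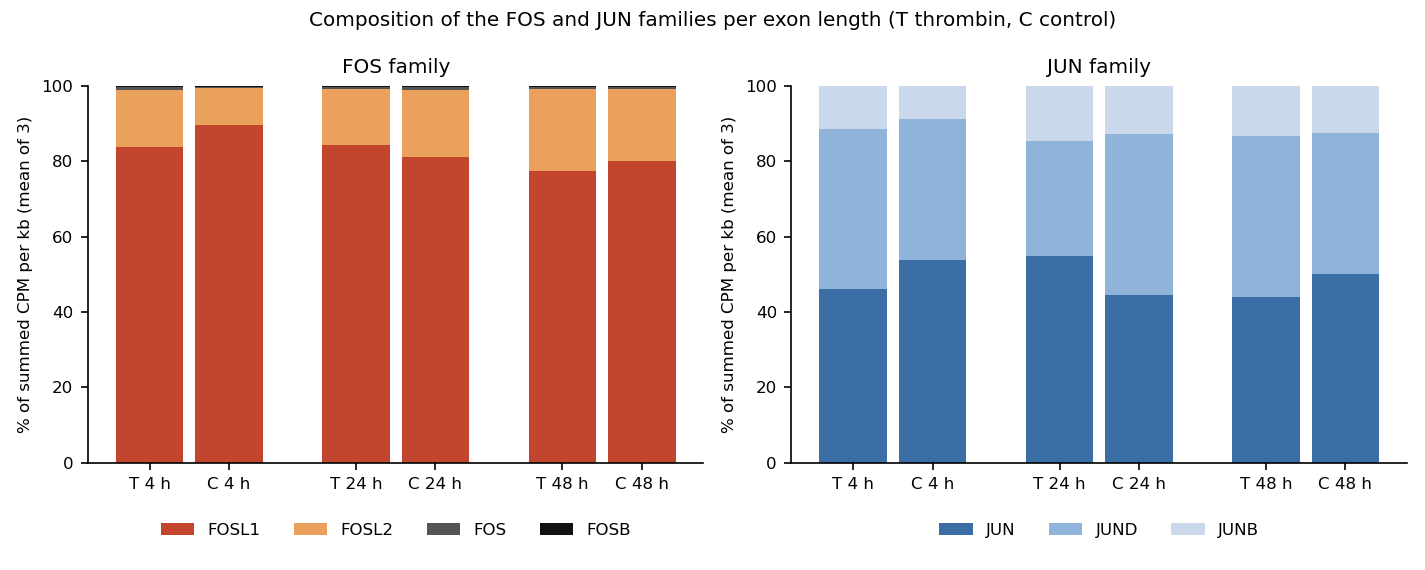
Share of each gene in the summed CPM per kilobase of the Fos genes and of the Jun genes, as the mean of 3 libraries in percent, with thrombin (T) left of control (C) at each time. FOSL1 fills 77.3% to 89.6% of the Fos bars, and JUND narrows to 30.5% in thrombin at 24 h against 42.9% in control.

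The members' levels were also compared with each other across the 18 libraries, as a description over libraries that share groups and depth. FOSL1 and JUN had the highest correlation of log2 CPM among the 28 pairs (Pearson r = 0.893, and 0.853 after removal of group means). JUN was lowest in number 12 in all 6 groups, FOSL1 was lowest there in 5 of the 6 (in thrombin 4 h, number 13 was just below it), and FOSL1 was highest in number 14 in all 6. The part of the library number in this correlation was not tested. FOSB and FOSL2 had r = 0.670 (0.340 within groups), and FOS and FOSL2 r = -0.698 (-0.165 within groups). JUNB and JUND had r = 0.303, and 0.721 within groups. Both are GC-rich (64.9% and 69.7% of the transcript), and the trend of level with GC content differed between libraries of a group. In thrombin 48 h libraries 12, 13 and 14 it was 0.07, -0.03 and -0.09 log2 per 10 percentage points. The part of GC content in the JUNB and JUND correlation was not tested. The genes whose log2 CPM was most like each member's were taken over the same 18 libraries, 3 for each. For FOSL1 they were PLAT (tissue plasminogen activator, r = 0.964), the cytokine gene IL1B (0.960) and the microRNA host gene MIR34AHG (0.958). For FOSL2 they were RAP1GAP2 (0.963), SAMD4A (0.955) and PPFIA1 (0.923), and for JUN TLE1 (a transcriptional corepressor, 0.939), LYPD1 (0.926) and the insulin-like growth factor carrier gene IGFBP4 (0.926). FOSB was most like the MAP kinase kinase gene MAP2K3 (0.883), ACTC1 (0.874) and ABCF1 (0.845). JUNB was most like ZC3H12A (0.919), FADS3 (0.916) and TAPBP (0.902), and JUND like ARL2 (0.872), LRP3 (0.868) and ZNF668 (0.867). ATF3 was most like APOL1 (0.844), ATP2B1-AS1 (0.827) and RHOQ (0.801), and FOS like RBFOX3 (0.771), ENO3 (0.765) and DNM1P35 (0.759).

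Genes around AP-1 were read from 4 lists, which were also chosen with earlier results of these data known. Of 18 dimer partners and related leucine zipper factors, 17 were tested. At 4 h 1 rose and 0 fell, at 24 h 1 rose and 1 fell, and at 48 h 0 were called, with medians of 0.01, 0.03 and 0.02 on the log2 scale; 11.8% of all genes were called at 4 h and 17.6% at 24 h. At 4 h the riser was MAFG, a small Maf factor, with 132 ± 7.06 CPM in thrombin and 99.7 ± 5.82 CPM in control (SD, n = 3 each; 0.41 ± 0.07, edgeR adjusted p = 0.000636). At 24 h NFE2L2, the oxidative stress factor NRF2, rose by 0.33 ± 0.09 (edgeR adjusted p = 0.00836), and the endoplasmic reticulum stress factor gene DDIT3 fell by 0.47 (SE 0.12, edgeR adjusted p = 0.00969). CREB5, next by adjusted p at 4 h, was not called at any of the 3 times (-0.37 ± 0.16 at 4 h, 0.13 ± 0.16 at 24 h and -0.03 ± 0.17 at 48 h).

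All 27 kinases and nuclear regulators that act upstream of AP-1 were tested. Of these 5 rose and 1 fell at 4 h, 4 rose and 2 fell at 24 h and 0 were called at 48 h, with medians of 0.06, 0.08 and 0.00, beside 11.8% of all genes called at 4 h and 17.6% at 24 h. MAPK8, which encodes the Jun kinase JNK1, measured 53.7 ± 6.36 CPM in thrombin and 68.6 ± 2.36 CPM in control at 4 h (SD, n = 3 each). It fell by 0.35 at 4 h (SE 0.09, edgeR adjusted p = 0.0091), and rose by 0.49 ± 0.09 at 24 h (edgeR adjusted p = 0.000263), with 75.0 ± 3.60 CPM in thrombin and 53.5 ± 1.77 CPM in control. MAPK3, which encodes ERK1, went the other way, with 0.31 ± 0.10 at 4 h (edgeR adjusted p = 0.0427) and -0.36 ± 0.10 at 24 h (edgeR adjusted p = 0.012). The serum response factor gene SRF rose by 0.37 ± 0.09 at 4 h (edgeR adjusted p = 0.00983) and the ribosomal S6 kinase gene RPS6KA1 by 0.35 ± 0.09 (edgeR adjusted p = 0.00884). ELK3, a ternary complex factor gene, rose by 0.33 ± 0.09 at 24 h (edgeR adjusted p = 0.0137).

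Textbook targets of AP-1 made up another list. Of 28 listed, 24 were tested; MMP12 had 0 counts, and MMP3, MMP10 and MMP13 were under the filter. At 4 h 0 rose and 5 fell (median -0.24), at 24 h 11 rose and 0 fell (median 0.52), and at 48 h 0 were called (median 0.04), beside 6.29% of all genes higher and 5.52% lower at 4 h and 9.05% higher and 8.54% lower at 24 h. CXCL8, which encodes a neutrophil chemokine, measured 7.24 ± 0.496 CPM in thrombin and 39.1 ± 22.3 CPM in control at 4 h, and 46.5 ± 17.8 CPM in thrombin and 4.58 ± 2.14 CPM in control at 24 h (SD, n = 3 each). The chemokine genes CXCL8 and CCL2 had -2.45 ± 0.45 and -0.78 ± 0.23 at 4 h, and 3.33 ± 0.49 and 2.20 ± 0.23 at 24 h. The integrin gene ITGB1 fell by 0.52 at 4 h and rose by 0.63 ± 0.11 at 24 h. SPHK1, which encodes a sphingosine kinase, was not called at 4 h (0.06 ± 0.10) and rose by 1.18 ± 0.10 at 24 h (edgeR adjusted p = 9.71e-09). The difference between the 24 h and 4 h effects was called positive for 15 and negative for 1 of the 24, beside 13.6% of all genes positive and 14.3% negative.

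Of 28 other immediate early genes, 26 were tested, leaving out EGR4 and DUSP2. At 4 h 1 rose and 7 fell (median -0.24), at 24 h 8 rose and 4 fell (median 0.13), and at 48 h 0 were called (median 0.15). Of all genes, 6.29% were higher and 5.52% lower at 4 h, and 9.05% higher and 8.54% lower at 24 h. The growth regulator gene MYC had -0.36 ± 0.08 at 4 h (edgeR adjusted p = 0.00478) and 0.78 ± 0.08 at 24 h (edgeR adjusted p = 1.43e-07). DUSP1, which encodes a phosphatase that inactivates MAP kinases, had -0.55 ± 0.12 (edgeR adjusted p = 0.00372) and 0.53 ± 0.12 (edgeR adjusted p = 0.00272), and RHOB -0.49 ± 0.10 and 0.35 ± 0.10 at the same times. CCN1, which encodes a matricellular protein, was not called at 4 h (-0.21 ± 0.09) and rose by 0.96 ± 0.09 at 24 h (edgeR adjusted p = 3.48e-08). KLF2 fell by 0.62 at 4 h (SE 0.13, edgeR adjusted p = 0.00269) and was not called at 24 h. KLF4, a transcription factor gene, was among the 4 that fell at 24 h, with 0.40 ± 0.16 at 4 h, not called, and -1.34 ± 0.16 at 24 h (edgeR adjusted p = 2.68e-06).

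**Figure D5:**
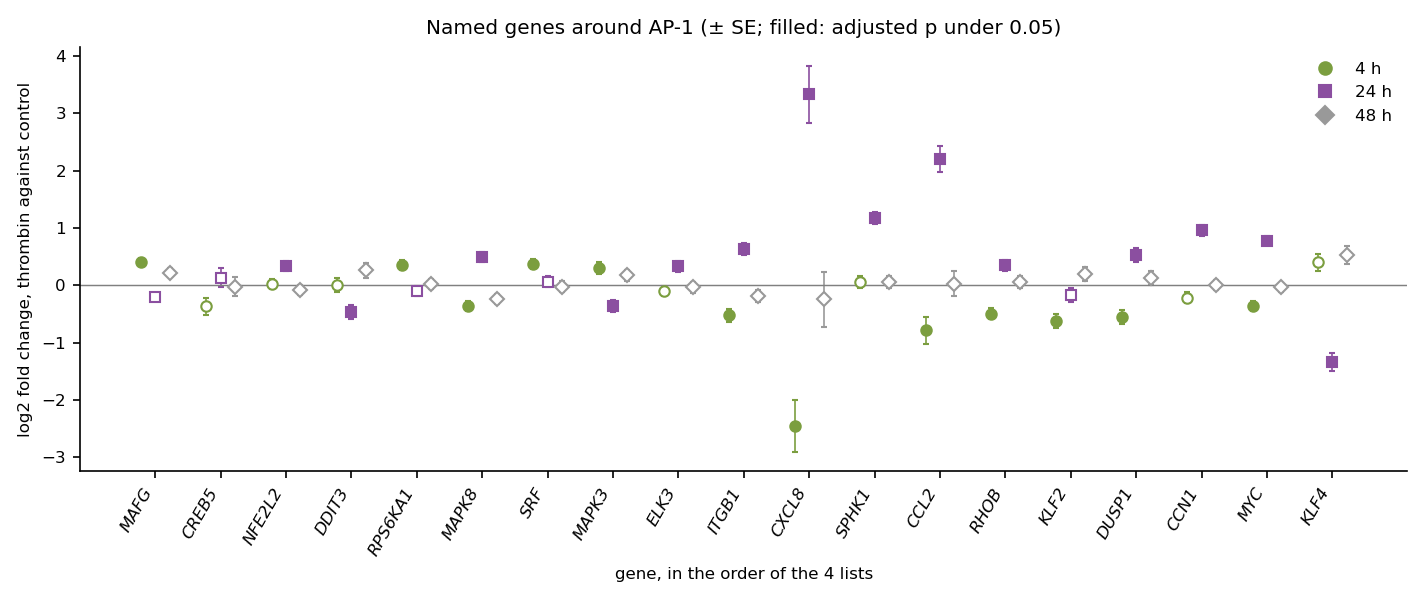
Log2 fold change of thrombin against control at 4, 24 and 48 h for named genes of the 4 lists, in the order dimer partners, upstream regulators, targets and other immediate early genes, with bars of 1 SE and filled points where the edgeR adjusted p was under 0.05. CXCL8 had -2.45 at 4 h and 3.33 at 24 h, KLF4 had -1.34 at 24 h, and no point was filled at 48 h.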

How the data were processed

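RNA-seq of 18 LX-2 libraries was analysed, with poly(A) selection per the labels' protocols. The table the authors deposited gave raw counts by gene symbol, whole numbers whose totals differed between libraries. The submitters' processing notes name DESeq2, SAMtools 1.21, Bowtie2 2.5.4 and cutadapt 4.9, without their roles, and GRCh38 (hg38). The read counter, annotation and strand setting are not given in the sources used here, so genes that overlap another are uncertain in level. All columns were matched to libraries by name, and 0 were left over. Replicate libraries of a group differed beyond sampling noise in all 18 pairs (chi-square per degree of freedom 2.85 to 17.0), so each counted as 1 replicate.

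The analysis used edgeR 4.0.16 (R 4.3.3). filterByExpr (minimum count 10, minimum total 15) kept 15353 genes, with over 99.9% of each library's counts. Libraries were TMM-scaled. One quasi-likelihood fit over all 18 libraries estimated each group's mean (biological coefficient of variation 9.07%, 12 residual degrees of freedom). Tests were two-sided, p-values were Benjamini-Hochberg adjusted over all tested genes, and each SE is the log2 fold change divided by the root of its F. Shares were compared by exact permutation tests. Alternatives were DESeq2 1.42.0, RLE factors, no filter on low counts, a fit of the compared groups alone, a replicate block, and each library and each library number left out. Another, chosen after seeing the data, was edgeR with library offsets from a curve on transcript GC content (94.9% of tested genes had a value). The curve was fitted to each gene's log2 CPM minus its mean over the 18 libraries. The members and gene lists were chosen with earlier results of these data known. The named genes were the 8 members, the 3 genes most correlated with each, and from each list the 3 with the smallest adjusted p at 4 h and at 24 h; values of some genes that the rule names are not reported here. Promoters came from RefSeq (GRCh38.p14) and exon lengths from GENCODE v29. Counts were simulated for the 15353 genes with 200 changed, for each comparison from the same gene means and spread over all 18 libraries. The procedure called 71.6%, 91.3% and 96.9% of genes changed 1.5-, 2- and 4-fold for the 4 h comparison, with 5.98% of calls false. For the 24 h comparison it called 64.7%, 77.3% and 97.0%, with 1.85% false. For the 48 h comparison it called 63.0%, 94.1% and 95.8%, with 5.46% false. Because all runs shared their means and spread, these figures do not rank the 3 times. With 200 changed genes set in advance, they do not give the power behind the 0 calls at 48 h.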

Additional observations from a re-analysis of the deposited data

Results flagged for a closer look

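The effect of thrombin differed between times for 5 of the 8 AP-1 genes by a test of the difference itself, which gave 7 results. Of all tested genes, 28% were called for 24 h minus 4 h, 13.8% for 48 h minus 24 h and 0.632% for 48 h minus 4 h. FOSL1 had an effect 1.76 higher on the log2 scale at 24 h than at 4 h (edgeR adjusted p = 1.08e-05), and changed direction between those times. FOSB was 1.10 higher at 24 h than at 4 h (edgeR adjusted p = 0.0211), JUN 0.74 higher (edgeR adjusted p = 0.00336) and FOSL2 0.72 higher (edgeR adjusted p = 0.000672). The effect at 48 h minus that at 24 h was -1.11 for FOSB (edgeR adjusted p = 0.037), -0.95 for FOSL1 (edgeR adjusted p = 0.00787) and 0.93 for JUND (edgeR adjusted p = 0.0149). This FOSB difference lost its call in 12 of 21 alternatives. Only the FOSL1 difference of 24 h minus 4 h kept its call in all 21. All 7 results rest on the labels of the 24 h groups. The differences of 24 h minus 4 h rest also on the 4 h labels, and those of 48 h minus 24 h on the 48 h labels. Groups of 3 libraries were too small for the test of a single distant value.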

How the results depend on the processing

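Over 12 comparisons of the 8 genes, 1584 recomputed values were made; 1474 kept their direction and their side of the threshold, 54 lost a call, 56 gained one and 0 called values changed sign, while 86 values called in neither fit did. At 4 h, where 1 member was called, 2 were called by DESeq2, with no filter, in a fit of the 4 h libraries alone, with GC correction and with a replicate block. At 48 h, where 0 were called, 1 was with no filter. For 48 h minus 4 h, with 0 called, DESeq2 gave 1, no filter 2 and the replicate block 1. With no filter, control 48 h against control 24 h gave 1 (0 as reported), thrombin 24 h against thrombin 4 h 7 (4 as reported) and thrombin 24 h against control 4 h 4 (2 as reported). The cause was not tested. Leaving out libraries gave 0 to 2 members at 4 h, 3 to 4 at 24 h, 0 to 0 at 48 h, 1 to 5 for 24 h minus 4 h, 0 to 4 for 48 h minus 24 h, 0 to 2 for 48 h minus 4 h, 1 to 2 for control 24 h against control 4 h, 0 to 2 for control 48 h against control 24 h, 1 to 5 for thrombin 24 h against thrombin 4 h, 0 to 3 for thrombin 48 h against thrombin 24 h, 0 to 0 for thrombin 4 h against control 24 h and 0 to 3 for thrombin 24 h against control 4 h. In the same refits and order, all genes called ran from 102 to 3565, 941 to 2501, 0 to 5 and 1603 to 4704. Then came 533 to 2270, 0 to 1124, 381 to 2323 and 16 to 1130, and last 588 to 2978, 346 to 1967, 0 to 75 and 115 to 544.

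Among all genes, 1813 were called at 4 h, 102 without the libraries numbered 13 and 3565 without those numbered 12. At 48 h 0 were called, 14 by DESeq2, 50 with no filter, 4 with GC correction, 2 in a fit of the 48 h libraries alone and 1 with the replicate block. For 48 h minus 4 h 97 were called, and 223, 381, 163 and 304 by DESeq2, with no filter, with the replicate block and with GC correction. Control 48 h against control 24 h had 940, with 1524 under no filter and 1611 in a fit of its own libraries. Thrombin 4 h against control 24 h had 11, with 29, 68, 21 and 19 by DESeq2, with no filter, with the replicate block and with GC correction. Thrombin 24 h against control 4 h had 513, with 301 in a fit of its own libraries and 909 with GC correction.

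Over all genes the library numbers fell short of pairing the libraries: deviations from group means of same-numbered libraries correlated between -0.167 and 0.275 (median 0.0096, 11 of 45 pairs over 0.1, against 10 of 90 pairs of different numbers), and 9 of 18 libraries correlated best with their own number, while JUN was lowest in number 12 and FOSL1 highest in number 14 in all 6 groups. With the replicate block, FOSL1 kept its calls at 4 h (-0.85) and 24 h (0.89) and JUN was called at both (-0.37 and 0.34). FOSB, FOS and ATF3 rest on few counts, which limits what could be detected in them.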
